A study of Rattus norvegicus with 9 samples.

Results

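The genes described here are 8 genes of the contractile and calcium-handling machinery of skeletal muscle, measured in pools of rat dorsal root ganglia, where the cell bodies of sensory neurons lie. They are Acta1, Myl1, Myh1, Tnnt3, Tnnc2, Tnni1, Tnni2 and Atp2a1. The members were chosen from their own values in earlier results of these arrays, so their levels, differences and correlations are a description, and nothing is supported by them. All 13 probe sets annotated to 1 of these symbols alone were taken, of 15866 probe sets and 10411 genes on the array. Myh1 had 5 probe sets, Tnni1 had 2 and each other member had 1.

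The study compared Sprague-Dawley rats in 3 groups. The normal vehicle group had received no streptozotocin (STZ), which destroys pancreatic beta cells and is used to make rats diabetic. The STZ vehicle group and the STZ FK1706 group had both been injected with STZ, and the latter received FK1706, a compound that binds immunophilins. The sources used here give no dose. Ganglia L4 to L6 were collected after 1, 2 or 3 weeks of administration, and equal amounts of RNA from 5 rats were combined for each array. Each group thus had 3 arrays, 1 pool per week, and shared the weeks of sampling with the others. A p-value here rests on the spread between pools left after group and week means, not between rats. With 1 pool per group and week, that spread also holds any group difference that changes with the week.

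Skeletal muscle shortens when myosin filaments pull on actin filaments. Calcium released inside the fibre binds the troponin complex, which frees actin for myosin, and a calcium pump then returns the calcium to its store. Fast and slow fibres use different genes for many of these parts. A ganglion holds sensory neurons, satellite glia, Schwann cells, fibroblasts and vessels, and no skeletal muscle fibre belongs to it. In bulk RNA, fewer cells of a type and less RNA per cell cannot be told apart.

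Levels are log2 signals after an offset was added and the arrays were put on one scale. A group mean is given with its SD over 3 pools, which includes differences between weeks. The 2% trimmed mean of the deposited signal ranged from 360 to 532 over the arrays and was lower in later weeks. It correlated with the mean deviation of the 8 members at r = 0.08 over 9 arrays. Arrays have no read depth, and their number, 9, limits the precision. All 13 probe sets passed the filter on low values, a mean log2 signal of 7.36. Tnnt3 passed it by 0.008, Tnnc2 by 0.13 and the second Tnni1 probe set by 0.04. Acta1 stood 2.12 above it and Myh1 up to 3.06 above it. Tnnt3 and Tnnc2 passed it only through the normal pool of week 2, where both were highest.

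Acta1 (Entrez gene 29437) encodes skeletal alpha-actin, the thin filament protein of the sarcomere. Its log2 signal in weeks 1, 2 and 3 was 9.14, 10.75 and 9.84 in normal pools, 9.44, 8.47 and 9.91 in STZ vehicle pools and 9.23, 10.12 and 8.40 in FK1706 pools. The normal pool of week 2 was highest and the FK1706 pool of week 3 lowest, 5.11-fold apart. All 3 groups overlapped, with means of 9.91 ± 0.807 (SD, n = 3), 9.27 ± 0.733 and 9.25 ± 0.858.

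Myl1 (Entrez gene 56781) encodes the essential light chain of fast myosin. In the same order of weeks it read 7.89, 9.48 and 8.23 in normal pools, 8.29, 7.23 and 8.39 in STZ vehicle pools and 7.38, 8.43 and 6.55 in FK1706 pools. Its pools spanned 7.64-fold, and the same pools as for Acta1 were highest and lowest. The groups again overlapped, at 8.54 ± 0.840, 7.97 ± 0.643 and 7.45 ± 0.943 (SD, n = 3).

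The promoters below show 2 members whose level differed widely between pools, Acta1 and Tnni2, and 2 that differed less, Myh1 and Tnni1. Each run holds the 200 bases before the RefSeq start on the gene's own strand in GRCr8: Acta1 at chr19:68784195-68784394 (minus strand), Tnni2 at chr1:207024290-207024489 (plus), Myh1 at chr10:52384712-52384911 (plus) and Tnni1 at chr13:49781329-49781528 (plus). Capitals mark matches to 5 motifs: the E-box CANNTG, the MCAT element CATTCC, the TATA box TATAAA, the MEF2 site and the CArG box. All were searched on both strands except the TATA box, which was searched on the gene's strand.
Acta1: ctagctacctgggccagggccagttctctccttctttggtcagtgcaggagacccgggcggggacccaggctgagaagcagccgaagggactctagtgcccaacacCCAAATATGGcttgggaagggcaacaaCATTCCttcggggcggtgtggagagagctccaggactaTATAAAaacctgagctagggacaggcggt
Tnni2: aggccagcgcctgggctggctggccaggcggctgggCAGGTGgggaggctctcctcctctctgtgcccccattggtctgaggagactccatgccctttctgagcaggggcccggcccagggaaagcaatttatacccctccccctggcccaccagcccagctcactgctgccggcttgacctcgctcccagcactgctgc
Myh1: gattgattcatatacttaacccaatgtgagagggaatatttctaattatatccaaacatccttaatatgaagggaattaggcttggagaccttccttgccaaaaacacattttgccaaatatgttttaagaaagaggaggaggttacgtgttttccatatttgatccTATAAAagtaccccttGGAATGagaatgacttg
Tnni1: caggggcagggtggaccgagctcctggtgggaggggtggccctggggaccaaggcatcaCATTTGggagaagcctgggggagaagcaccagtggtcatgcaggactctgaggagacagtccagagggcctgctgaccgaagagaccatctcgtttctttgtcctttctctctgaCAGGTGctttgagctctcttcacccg

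Acta1 held a CArG box at -94 (its first base, counted from the start), an MCAT element at -67 and a TATA box at -29. Myh1 held a TATA box at -33 and an MCAT element at -17. Tnni2 had an E-box at -164 and Tnni1 had E-boxes at -141 and -26. None of these matches overlapped another. RefSeq's table held 8 promoters of 7 members, Myl1 having 2, and none for Tnnt3. An E-box was in 6 of the 8 and in 57.0% of all 33469 promoters of the table. The MEF2 site was in 1 (a Myl1 promoter) against 2.36% of all, the CArG box in 1 against 1.16%, MCAT in 2 against 9.74% and the TATA box in 2 against 6.59%. A match describes letters only.

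The troponin complex has a calcium-binding subunit (troponin C), an inhibitory subunit (troponin I) and a subunit that holds tropomyosin (troponin T). Tnnc2 (Entrez gene 296369), the fast troponin C gene, read 7.21, 9.07 and 7.74 in normal pools of weeks 1, 2 and 3, 7.66, 6.92 and 8.03 in STZ vehicle pools and 6.87, 7.72 and 6.19 in FK1706 pools. Its span was 7.34-fold, from the normal pool of week 2 to the FK1706 pool of week 3.

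Tnni2 (Entrez gene 29389), the fast troponin I gene, read 7.91, 9.21 and 8.30 in normal pools, 8.17, 7.48 and 8.66 in STZ vehicle pools and 7.57, 8.22 and 7.38 in FK1706 pools. The span was 3.56-fold between the same pools. Tnnt3 (Entrez gene 24838), the fast troponin T gene, read 6.90, 8.60 and 7.52, then 7.22, 6.63 and 7.63, then 7.12, 7.81 and 6.87 in the same order. It spanned 3.90-fold and was lowest in the STZ vehicle pool of week 2. For these 3 genes every pair of groups overlapped. Tnni2 and Tnnt3 lie near each other, with 5 coding genes between them in GRCr8.

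Atp2a1 (Entrez gene 116601) encodes SERCA1, the calcium pump of fast fibres. It read 7.51, 9.45 and 7.94 in normal pools, 8.005, 7.71 and 8.73 in STZ vehicle pools and 7.23, 8.31 and 7.48 in FK1706 pools. It was highest in the normal pool of week 2 and lowest in the FK1706 pool of week 1, 4.66-fold apart. The groups overlapped.

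Tnni1 (Entrez gene 29388) encodes the troponin I of slow fibres and was the only slow fibre gene among the members. Its brighter probe set read 7.49, 7.38 and 7.70 in normal pools, 6.88, 7.57 and 7.54 in STZ vehicle pools and 7.59, 7.98 and 7.88 in FK1706 pools, a span of 2.14-fold. The FK1706 pools all lay above the STZ vehicle pools, though the lowest of the former (7.59) and the highest of the latter (7.57) nearly met. The groups of that comparison did not overlap for 6.82% of all probe sets tested, against 12.8% for STZ vehicle against normal vehicle and 11.9% for FK1706 against normal vehicle. The second probe set spanned 0.86 on the log2 scale, from 6.96 to 7.82, and its groups overlapped.

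Myh1 (Entrez gene 287408) encodes the heavy chain of fast type 2X myosin and lies between Myh2 and Myh4 in GRCr8. Its brightest probe set read 10.56, 10.39 and 10.65 in normal pools, 10.45, 10.27 and 10.55 in STZ vehicle pools and 10.20, 10.33 and 10.39 in FK1706 pools. The highest and lowest pool differed 1.37-fold, and the pool that was highest for the other fast fibre members was not highest here. The other 4 probe sets spanned 0.39 to 0.80 on the log2 scale, and no pair of groups was separate for any of them. Myosin heavy chain genes are similar in sequence. Whether probe sets for Myh1 share signal with its neighbours was not tested, as probe sequences were not used here. The probe sets of Myh2 and Myh4 lay under the filter, with mean log2 signals of 5.95 and 5.92. A further probe set annotated to 3 myosin heavy chain genes at once, which is no member and lay under the filter, had a deposited signal of 132.2 in the normal pool of week 2 and 28.2 to 49.8 in the other 8.

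**Figure D1:**
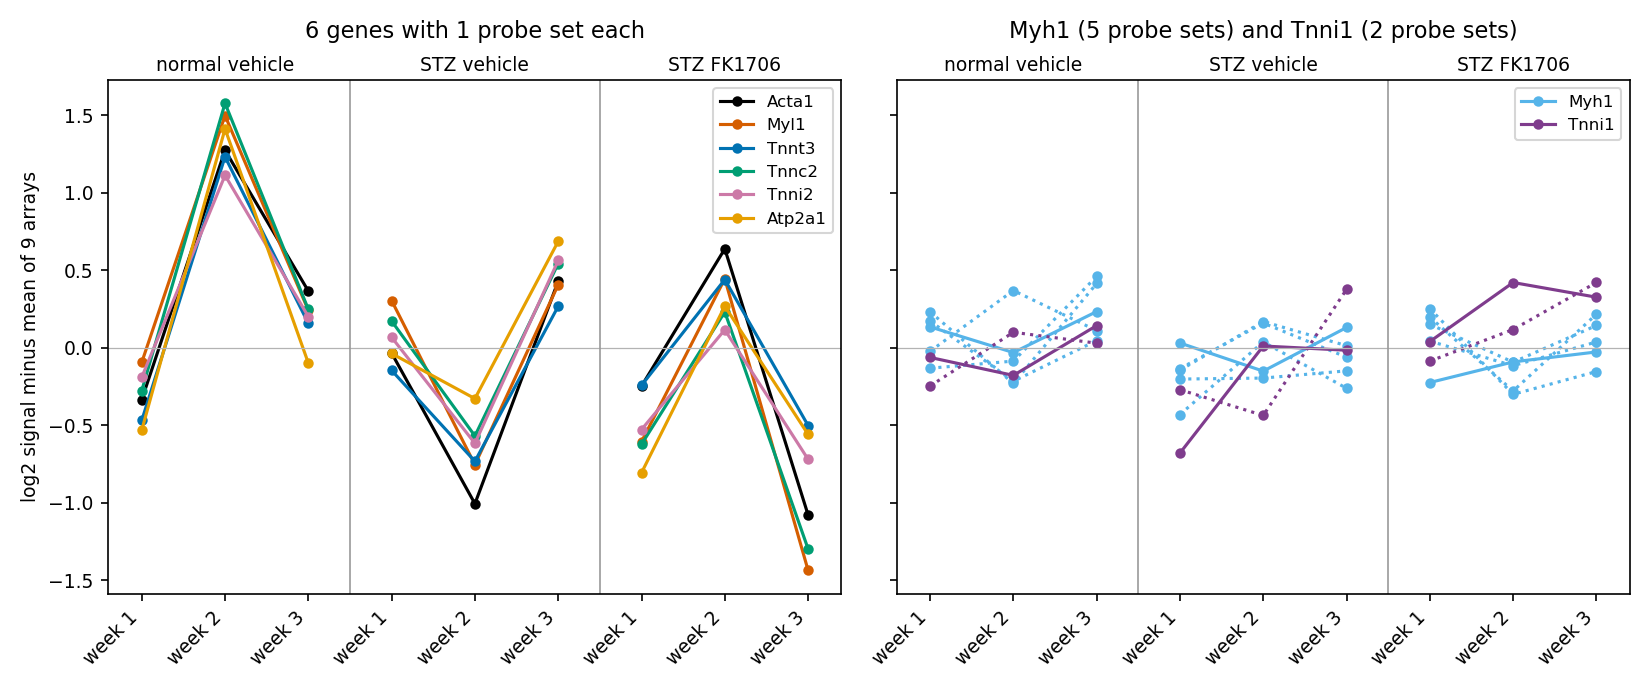
Log2 signal of each member probe set minus its mean over the 9 arrays (y axis) by group and week (x axis), with 1 point per pooled array and lines joining the weeks of a group. The left panel shows the 6 genes Acta1, Myl1, Tnnt3, Tnnc2, Tnni2 and Atp2a1, all highest in the normal pool of week 2, and the right panel Myh1 and Tnni1 (solid lines, brightest probe set, and dotted lines, the others), which kept closer to 0.

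Among the 9520 probe sets past the filter, the median span over the arrays was 0.47 on the log2 scale, the 90th percentile 0.85 and the 99th 1.43. The spans of the 6 genes Acta1, Myl1, Tnnt3, Tnnc2, Tnni2 and Atp2a1 ran from 1.83 to 2.93, each at or above the percentile 99.6 of these. The normal pool of week 2 set the top of all 6 spans, and Tnnt3 and Tnnc2 passed the filter only through it. Nothing is read from these percentiles. The Tnni1 probe sets stood at percentiles 96.6 and 90.4, and the 5 Myh1 probe sets between 34.7 and 87.6. Grouping these 6 genes together was a choice made after their values had been seen.

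The 6 genes varied together between pools. Their mean deviation from the 9-array mean in weeks 1, 2 and 3 was -0.32, 1.35 and 0.19 in normal pools. It was 0.05, -0.67 and 0.48 in STZ vehicle pools and -0.51, 0.36 and -0.93 in FK1706 pools. No group was high or low in every week. The order of the pools differed between weeks, with the STZ vehicle pool above the normal pool in weeks 1 and 3 and below it in week 2.

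Over the 9 arrays the 15 pairs among these 6 genes had a median Pearson r of 0.93 (0.83 to 0.98). With group and week means removed the median was 0.98. Without the normal pool of week 2 and the FK1706 pool of week 3, which lay farthest from the median, it was 0.84 (0.66 to 0.98) over 7 arrays. Over all 8 members, with 1 probe set each, the 28 pairs had a median of 0.84 (-0.35 to 0.98), and 0.71 without those pools. These points share the array, the scaling and the rats in each pool, and no p-value is given.

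The brightest Myh1 probe set had a median r of 0.28 with the 6 genes, and the others -0.69, -0.16, -0.42 and 0.07. The 5 Myh1 probe sets had a median r of 0.32 among themselves (-0.25 to 0.57), so they did not follow one pattern. The Tnni1 probe sets had medians of -0.23 and 0.27 with the 6 genes and 0.49 with each other. None of the probe sets annotated to Myh1 or Tnni1 alone thus shared the pattern of the other 6 members. Whether this holds for the Myh1 transcript itself was not tested.

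**Figure D2:**
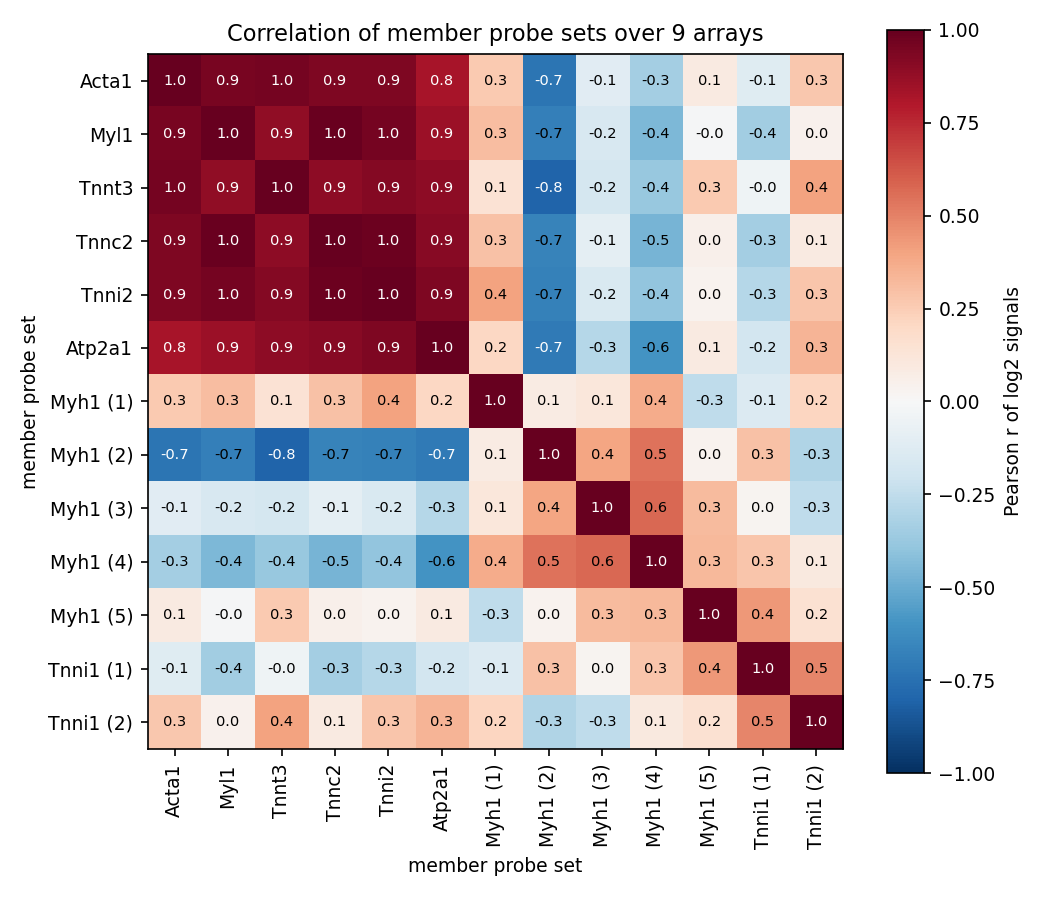
Pearson r over the 9 arrays between the log2 signals of the 13 member probe sets, printed in each cell and coloured from blue (-1) to red (1), with probe sets of Myh1 and Tnni1 numbered from the brightest. Acta1, Myl1, Tnnt3, Tnnc2, Tnni2 and Atp2a1 form a block with r of 0.83 and above, and the cells of Myh1 and Tnni1 lie outside it.

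Fast fibre members were set beside the slow one in each pool. The mean deviation of the 6 fast genes (Myl1, Myh1, Tnnt3, Tnnc2, Tnni2 and Atp2a1) minus that of Tnni1 was -0.18, 1.31 and 0.02 in normal pools of weeks 1, 2 and 3. It was 0.74, -0.54 and 0.45 in STZ vehicle pools and -0.55, -0.19 and -1.08 in FK1706 pools, a range of 2.40. The slow side was the brighter Tnni1 probe set alone. That probe set was lowest in the STZ vehicle pool of week 1, and the second Tnni1 probe set in that of week 2. Their r was 0.49, so pool values and some of their signs depend on the probe set used. Fast and slow genes outside the members gave a range of 0.92. They were 3 fast genes (Mybpc2, Pvalb and Mylk2) and 1 slow gene (Casq2) past the filter, each taken by its brightest probe set. Pvalb, which encodes the calcium buffer parvalbumin, is also a gene of proprioceptive sensory neurons.

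Each group difference was then taken within its week, where there is 1 array on each side and no test. STZ vehicle against normal vehicle in week 2 had 6 of 13 member probe sets at least 2-fold lower and 0 higher, where 0.42% of all probe sets were past 2-fold in either direction. They were the 6 genes that varied together, from -2.28 for Acta1 to -1.73 for Tnni2, with a median of -2.06. In week 1 the members at least 2-fold apart were 0 (0.168% of all probe sets), with a median of 0.36 for the 6 genes (0.26 to 0.50), and in week 3 also 0 (0.546%), with a median of 0.23 (0.06 to 0.78).

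FK1706 against STZ vehicle shares the STZ vehicle arrays with that comparison. In week 2, 3 members (Acta1, Myl1 and Tnnt3) were at least 2-fold higher (0.294% of all probe sets), and the 6 genes had a median of 0.99 (0.60 to 1.64). In week 3, 5 members (the 6 genes without Tnnt3) were at least 2-fold lower (0.578%), with a median of -1.40 (-1.84 to -0.77). In week 1 the count was 0 (0.189%) and the median -0.68 (-0.91 to -0.10).

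FK1706 against normal vehicle shares arrays with both. At least 2-fold apart were 0 members in week 1 (0.242% of all probe sets), 3 lower in week 2 (0.567%) and 3 lower in week 3 (0.525%). Median differences of the 6 genes were -0.31, -1.02 and -1.18 for the successive weeks. The 3 lower genes were Myl1, Tnnc2 and Atp2a1 in week 2, and Acta1, Myl1 and Tnnc2 in week 3.

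**Figure D3:**
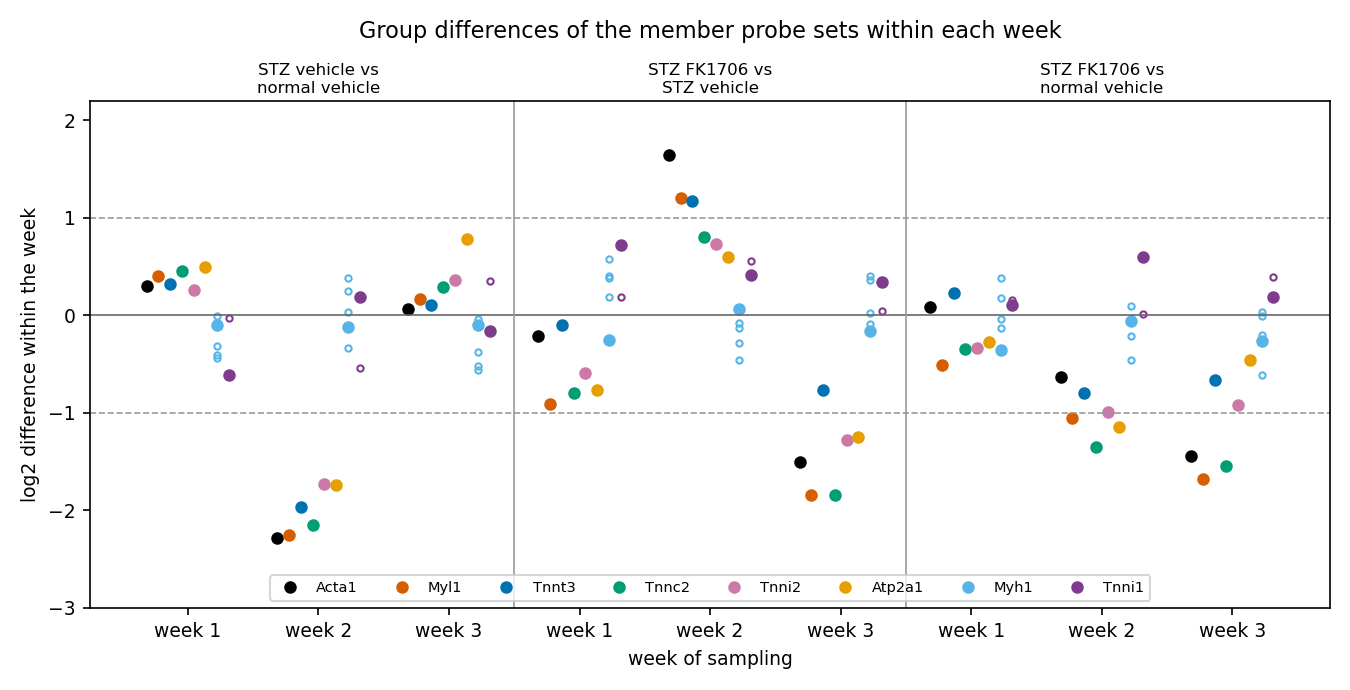
Log2 difference between the pools of 2 groups in the same week (y axis) for each member probe set, by comparison and week (x axis), with open circles for further probe sets of Myh1 and Tnni1 and dashed lines at 2-fold. In week 2 the 6 genes lie between -2.28 and -1.73 for STZ vehicle against normal vehicle and between 0.60 and 1.64 for FK1706 against STZ vehicle, while in week 3 they lie between -1.84 and -0.77 for the latter.

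Over all weeks, the limma fit to all 9520 probe sets called 0 of the 13 member probe sets in each comparison, where the share called of all probe sets was 0.063% for STZ vehicle against normal vehicle, 0% for FK1706 against STZ vehicle, 0% for FK1706 against normal vehicle and 0.0525% between weeks. Since the members were chosen from these values, nothing is read from their count. At an unadjusted p under 0.05 limma had 2, 1, 3 and 1 of these 13 probe sets in that order, and 828, 321, 777 and 1019 of all probe sets. The smallest limma adjusted p of a member was 0.477, 0.999, 0.518 and 0.354. The median log2 difference over the 13 probe sets was -0.32, -0.03 and -0.23 for the 3 group comparisons, beside medians within 0.005 of 0 over all probe sets tested.

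For STZ vehicle against normal vehicle, Acta1 had a log2 difference of -0.64 (SE 0.466, limma adjusted p = 0.716) and Myl1 -0.56 (SE 0.464, limma adjusted p = 0.746). At an unadjusted p under 0.05 stood 2 further Myh1 probe sets, with -0.32 (SE 0.118, limma adjusted p = 0.477) and -0.37 (SE 0.146, limma adjusted p = 0.509). Tnnt3 had -0.51, Tnnc2 -0.47, Tnni2 -0.37, Atp2a1 -0.15 and the brightest Myh1 probe set -0.11. For the 6 genes the sign depended on single pools, while the brightest Myh1 probe set stayed below 0 without any 1 array. Without the STZ vehicle pool of week 2 the median over the 13 probe sets was 0.12, and the 6 genes had 0.12 (Tnnt3) to 0.51 (Atp2a1). Without the normal pool of week 2, Atp2a1 had 0.37, Tnnc2 0.02, Tnni2 0.03 and Acta1 -0.24.

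For FK1706 against STZ vehicle, Tnni1 had 0.49 (SE 0.169, limma adjusted p = 0.999), Tnnc2 -0.61, Myl1 -0.52 and Acta1 -0.03. For FK1706 against normal vehicle, Myl1 had -1.08 (SE 0.464, limma adjusted p = 0.595) and Tnnc2 -1.08 (SE 0.441, limma adjusted p = 0.587), and Tnni1 had 0.29. Without the STZ vehicle pool of week 2, the member probe sets at an unadjusted p under 0.05 in limma numbered 3, 8, 6 and 8 of 13 for STZ vehicle against normal vehicle, FK1706 against STZ vehicle, FK1706 against normal vehicle and between weeks. The counts over all 9520 probe sets in that fit were 677, 305, 724 and 965, and 0 members were called. Each of the 9 arrays was left out in turn. Without any 1 other array, the member probe sets at that p numbered 0 to 3, 0 to 2, 0 to 4 and 1 to 2 in the same order. Nothing is read from these counts, as the members were chosen from these values.

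Other muscle genes were taken from lists with no member. Ckm, the creatine kinase of muscle, was the gene most like the members (r = 0.96 with their mean deviation over 9 arrays, rho 0.88). It read 7.76, 9.57 and 8.53 in normal pools of weeks 1, 2 and 3, 8.32, 7.67 and 8.62 in STZ vehicle pools and 7.75, 8.75 and 7.86 in FK1706 pools. Car3, the carbonic anhydrase abundant in slow muscle and fat, came next (r = 0.94, rho 0.93), at 7.31, 8.95 and 7.77, then 7.74, 7.58 and 8.15, then 7.07, 8.37 and 6.81. For both the normal pool of week 2 was highest and the groups overlapped. Without that pool and the FK1706 pool of week 3, r was 0.96 for Ckm and 0.84 for Car3.

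Of the 15 probe sets most like the members by r, 3 were on a muscle list: Ckm, Car3 and 1 probe set of Tpm1 (0.86, and 0.57 without those pools), an alpha-tropomyosin gene of many cell types. The others had r of 0.82 to 0.89 and spanned only 0.15 to 0.57 on the log2 scale. They were Abhd4, Fry, Ankrd24, Btaf1, Trmt112, Gab1, Cby1, Tnc, Prrc2a, Midn, Rarb and Gde1. Of 9507 probe sets of no member, 3 had an r of at least 0.9 (0.0316%) and 13 an r at or below -0.9 (0.137%). Of the 484 among them that spanned at least 2-fold, 5 had an r of at least 0.8: Ckm, Car3, the Tpm1 probe set, Mybpc2 and 1 without a symbol. The 6 Tpm1 probe sets ran from r = -0.83 to 0.86, and the gene is spliced differently in different tissues.

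Of 9 fast fibre genes listed, 8 were on the array and 3 past the filter. Their r was 0.80 for Mybpc2 (myosin-binding protein C of fast fibres), 0.75 for Mylk2 (the kinase of the skeletal myosin light chain) and 0.06 for Pvalb. Further probe sets of Mybpc2 and Mylk2, under the filter, had 0.31 and 0.26. Mybpc2 passed the filter only through the normal pool of week 2, its highest. The 5 genes under the filter were Actn3, the alpha-actinin of fast fibres (0.91), Casq1 (0.74), Myh4 (0.68), Myh2 (0.01) and Myh13 (-0.25). Of 10 slow fibre genes, 9 were on the array and only Casq2 was past the filter (r = -0.12, and 0.31 for its dimmer probe set). The 8 under it ran from -0.39 (Csrp3) to 0.50 (Mybpc1), with Tnnc1 at 0.47, Myl3 at 0.27 and Myh7 at 0.29. So fewer slow fibre genes than fast ones could be followed.

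Of 24 other sarcomere genes 21 were on the array and 6 past the filter, with 10 probe sets and a median r of 0.32. Cryab, a small heat shock protein gene, had 0.34, Ldb3 (a Z-disc protein) -0.03, Myom2 (an M-band protein) 0.51 and Myoz1, another Z-disc gene, 0.81. The 15 under the filter ran from -0.64 (Srl) to 0.91 (Ttn, which encodes titin), and 3 of them had an r of at least 0.7. Of 18 muscle energy genes 17 were on the array and 6 past the filter, with a median r of 0.51 over 7 probe sets. Pfkm (phosphofructokinase, 0.35), Fabp3 (a fatty acid-binding protein, -0.04) and Gamt (creatine synthesis, -0.02) had a lower r than Ckm and Car3. Their mean log2 signals were 11.10, 10.11 and 9.18, against 8.31 for Ckm and 7.75 for Car3. Which cells gave the signal of these listed genes was not tested. The 11 energy genes under the filter ran from -0.23 (Ckmt2) to 0.76 (Ampd1), 4 of them at 0.7 or above. Over all probe sets tested the median r was 0.01, and 1.69% had an r of at least 0.7. That share leaves out the probe sets under the filter.

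Genes of muscle regulation and denervation were followed by 3 of 18 genes past the filter, with 15 on the array. Mef2c had an r of 0.60, Runx1 -0.12 and Chrne, the adult acetylcholine receptor subunit of the muscle endplate, -0.01. Myod1, Myog, Chrna1 and the other listed genes on the array lay under the filter. None of the muscle lists had a probe set called by limma in any comparison. At an unadjusted p under 0.05 in STZ vehicle against normal vehicle, the fast and slow lists had 0, the sarcomere list 2, the energy list 1 and the regulatory list 0. In FK1706 against STZ vehicle the energy list had 1 and the others 0. In FK1706 against normal vehicle the sarcomere list had 4, the regulatory list 1 and the others 0. The fast, slow, sarcomere, energy and regulatory lists held 3, 2, 10, 7 and 3 probe sets past the filter. Of all 9520 probe sets tested, limma had 828, 321 and 777 at that p in the 3 comparisons, in the order given here.

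Genes of other cells were summed on the linear scale. Of 9 red blood cell genes listed, 3 were on the array and 2 past the filter. Their summed signal, mostly that of Hbb, was 7880 to 11347 in normal pools, 7559 to 11380 in STZ vehicle pools and 8170 to 10846 in FK1706 pools, with r = -0.73 and rho -0.67 against the members. Hbb, a beta-globin gene, had r = -0.73 and Alas2, the haem synthesis enzyme of erythroid cells, -0.88. Slc4a1, an anion exchanger gene, lay under the filter with -0.19 and, for its other probe set, -0.33. Hba-a3, an alpha-globin gene, was among the 5 probe sets most opposite to the members at -0.94, with Cdyl at -0.96, Csnk1d at -0.94, Slc38a2 at -0.93 and Bnip3l at -0.93. On the deposited scale these were weaker, with Hba-a3 at -0.66, Slc38a2 at -0.43, Cdyl at -0.34, Csnk1d at -0.037 and Bnip3l at 0.035. The part of blood in these values was not tested.

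The 12 sensory neuron genes on the array, Nefh, Nefl and Prph brightest, summed to 57758 to 60587 over all pools, 1.05-fold apart, with r = -0.08. The 12 glial genes, Pmp22, Apoe and Mbp brightest, varied 1.09-fold (r = 0.61), and S100b had r = 0.79 within a span of 0.20. These sums rest mostly on their brightest genes. Some dimmer markers spanned more, with 1.04 on the log2 scale for Isl1, 1.05 for Fabp7 and 1.07 for Mag. These had r between -0.17 and 0.20 with the members, while Sox10 had 0.62 within a span of 0.60. Smooth muscle genes had a summed r of 0.60, with Mylk at 0.50, Acta2 at 0.19 and Myh11 at 0.75.

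Fibroblast and tendon genes, which include Dcn, Col3a1 and Col1a2, had a summed r of 0.01. They were 27244 to 36777 in normal pools, 22032 to 27449 in STZ vehicle pools and 24194 to 29662 in FK1706 pools. In STZ vehicle against normal vehicle 3 of their 13 probe sets were called lower, 2 of Col1a1 and 1 of Col3a1, and Col2a1 of the cartilage and bone list was too (limma adjusted p = 0.0135). Their r with the members was 0.11 to 0.24. Cartilage and bone genes (Spp1, Cnmd and Ctsk brightest) had a summed r of -0.20, adipose genes (Lpl, Cidea and Cfd) 0.39, cardiac genes (Ryr2, Nppa and Myh6) 0.24 and spinal cord genes (Gfap, Aldh1l1 and Aqp4) 0.54. The adipose genes under the filter ran from r = -0.54 (Ucp1) to 0.83 (Plin1). In the spinal cord list Gfap, the gene past the filter, had 0.49. The spinal cord genes under it ran from -0.52 (Aldh1l1) to 0.50 (Olig1) by their brightest probe sets. The lists for heart and spinal cord had 1 gene each past the filter, and the part of any of these tissues was not tested.

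**Figure D4:**
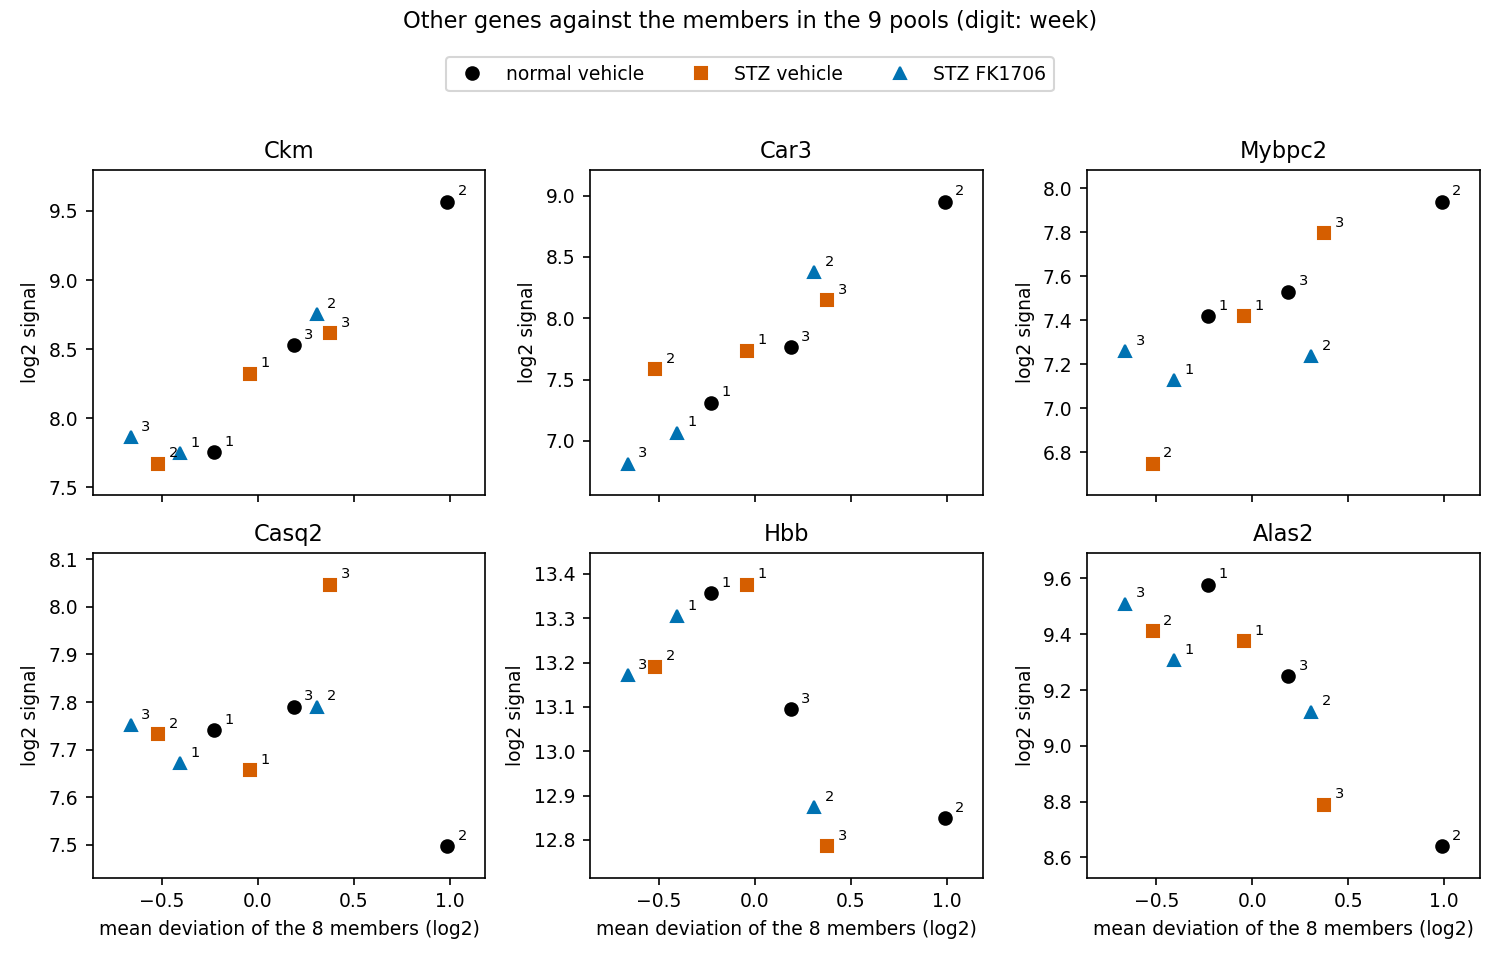
Log2 signal of Ckm, Car3, Mybpc2, Casq2, Hbb and Alas2 (y axes, each with its own scale that does not start at 0) against the mean deviation of the 8 members (x axis) in the 9 pools, marked by group with the week as a digit. Ckm and Car3 are higher in pools where the members are higher (r = 0.96 and 0.94) and Hbb and Alas2 are lower there (r = -0.73 and -0.88). The brighter Casq2 probe set, shown here, has little relation (r = -0.12).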

How the data were processed

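RNA from pools of 5 rats was hybridised to 9 one-colour Affymetrix arrays. The deposited files hold linear intensity values, 1 per probe set, computed with MAS5 (version not stated) per the submitters' processing notes, and MAS5 detection calls were not used here. The 57 control probe sets of 15923 were left out. Of the other 15866, 12783 had 1 gene symbol, 312 several and 2771 none, and GRCr8 held 12754 of the first with 0 symbols changed. The deposited values were not on one scale, so log2(intensity + 18.7), the offset being their 10th percentile, was quantile normalized. The 9520 probe sets whose mean reached the 40th percentile were tested.

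Group and week were factors in 1 limma model of all 9 arrays (limma 3.58.1 and R 4.3.3; lmFit and trended eBayes), which left 4 residual degrees of freedom. Two-sided p-values had Benjamini-Hochberg adjustment over all probe sets tested, with a threshold of 0.05, and a moderated F test compared the weeks. Week entered as a block because the labels give every group 1 pool in each week. With group means removed, same-week arrays correlated with r of -0.00053 to 0.27 in week 1, 0.0082 to 0.056 in week 2 and 0.17 to 0.32 in week 3. Nothing in the labels gives more than 1 pool per group and week. The scripts were tested on simulated data.

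The members and lists were chosen with earlier results of these data known. The named genes are all members, the 15 probe sets with 1 symbol most like their mean deviation by r and the 5 most opposite, up to 4 of the brightest genes of each muscle list, and up to 3 of each other list with those called. Other genes named (such as Actn3, Myh4, Ttn, Srl, Myoz1, S100b, Isl1, Fabp7, Mag, Myod1 and Myog), the set of 6 genes and the added alternatives were chosen after values had been seen. Alternatives were the deposited scale, trimmed-mean scaling, other offsets, filters, a prior without a trend, no week block, another fold and leaving out arrays or weeks. Promoters are from RefSeq's table for GRCr8.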

Additional observations from a re-analysis of the deposited data

Results flagged for a closer look

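The 6 genes that varied together differed between groups in opposite directions in different weeks, all 6 with the same sign within each of those weeks. For STZ vehicle against normal vehicle their median log2 difference was 0.36, -2.06 and 0.23 for weeks 1, 2 and 3. For FK1706 against STZ vehicle the medians were -0.68, 0.99 and -1.40 in that order. There is 1 pool on each side in a week, so the difference between weeks was not tested, and both comparisons use the same STZ vehicle arrays. Each group of 3 arrays is too small for a search for outlying pools.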

How the results depend on the processing

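Each value rests on pools of rats with no second pool in any group and week, and dim members such as Tnnt3 and Tnni1 lie close to the filter, where MAS5 signals are least precise. The member calls, the counts within a week, the co-variation and the fast against slow values were tallied together under the alternatives. Of these values, 155 kept their direction and side of the threshold or stayed within 1.5 times, and 11 did not. Many of the 155 repeat a count of 0 members called, and most of the 11 were counts within a week. Member calls by limma stayed at 0 in every alternative run but one: on the deposited scale, which keeps the lower trimmed mean signal of later weeks (5936 of all probe sets called), 3 member probe sets were called between weeks. Without the replicate block (week left out of the fit) 0 members and 1, 0 and 0 of all probe sets were called in the 3 group comparisons. At 1.5-fold in place of 2-fold the member probe sets apart within a week were 1 (lower) and 1 (higher) for STZ vehicle against normal vehicle in weeks 1 and 3, beside 2.09% and 4.77% of all probe sets. They were 5 (4 lower) and 6 (higher) for FK1706 against STZ vehicle in weeks 1 and 2 (2.38% and 2.36%), and 7 (6 lower) and 6 (lower) for FK1706 against normal vehicle in weeks 2 and 3 (5.27% and 4.52%). In both mixed cases Tnni1 was the higher one. On the deposited scale 1 member was 2-fold apart for FK1706 against STZ vehicle in week 1 and 5 for FK1706 against normal vehicle in week 2, and with an offset 4 times as large 1 for FK1706 against STZ vehicle in week 2. The range of fast minus slow genes was 0.92 with lists that hold no member, against 2.40. The r of Bnip3l with the members reversed to 0.035 on the deposited scale, and the cause was not tested.

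For all probe sets, 6 were called in STZ vehicle against normal vehicle, but 12 on the deposited scale, 0 with no filter, 0 with a prior without a trend and 0 to 11 without 1 array. For FK1706 against normal vehicle the deposited scale gave 89, trimmed-mean scaling 1 and a filter at the 60th percentile 2, against 0. Between weeks 5 were called, and 1 with trimmed-mean scaling, 0 with no filter, 0 without a trend and 18 without week 2. The deposited scale moved the median of all probe sets by -0.10, -0.07 and -0.17 in the 3 group comparisons.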
